A study of Mus musculus with 2 samples.

Results

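The 36 genes described here encode collagen chains and other structural proteins of the extracellular matrix, with the enzymes that crosslink them. They were chosen by name, as the rows of both deposited matrices whose gene symbol is on the list, and all 36 were found among 55357 genes. Single-cell RNA was counted in the middle part of the colon of mice with colitis induced with DSS (dextran sulfate sodium), which damages the epithelial lining. There is 1 group of 2 libraries, numbered repeats 1 and 2, from mice aged 7 weeks, kept under SPF (specific pathogen free) conditions and given 3% DSS over 6 days. Strain, sex and genotype are not given in the sources used here, and no untreated library was analysed here, so no value here is an effect of DSS. Whether the repeats are different animals is not given in the labels. The p-values reflect how differences between classes vary from 1 library to the other, pooled over classes. That variation could therefore be purely technical.

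The extracellular matrix is the protein scaffold between cells. Fibrillar collagens (types I, III and V) are triple helices of 3 chains that assemble into the tension-bearing fibrils of the submucosa, while type IV collagen and laminins form the sheet-like basement membranes under epithelium and around vessels and muscle. Elastin and fibrillin give recoil, small proteoglycans such as decorin coat fibrils, and lysyl oxidases join the chains covalently. In the gut wall these proteins are known to come mostly from fibroblasts, with smooth muscle, pericytes and endothelium making their own basement membranes.

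After filtering, 5419 cells of library 1 and 8425 of library 2 remained, with medians of 7938 and 6459 unique molecular identifiers (UMIs, counted RNA molecules) per cell, and 18 barcodes occurred in both libraries. Clusters were named from marker genes, so each class name means cells like that type. Fibroblasts numbered 63 and 136 cells in libraries 1 and 2, endothelium 63 and 128, smooth muscle with pericytes 30 and 58, monocytes 374 and 1372, and epithelium 1864 and 1246. Cells without a class made up 6.24% and 11.1%. Levels are given as CPM, the UMIs of a gene in a class scaled to the same fixed total of UMIs in every class and library, with library 1 first. The defining markers were present: platelet-derived growth factor receptor Pdgfra reached 719, 544 and 1692 CPM in the 3 fibroblast clusters, Cdh5 1018 and 1071 in the 2 blood vessel clusters, Lyve1 3547 in lymphatic endothelium, Myh11 6229 in smooth muscle and Rgs5 6202 in pericytes. Pdgfra was not limited to fibroblasts. It was highest, at 2104 CPM, in an unnamed stromal cluster led by Kcnn3 and Chodl, which also held 2098 CPM of Rgs5. The members and 171 list genes in all were left out when cells were clustered. Pcolce and Cd36, which are on lists of related genes and are also markers, stayed in. Genes correlated with them were used, however, and classes and members are therefore not fully independent.

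Among the named classes matrix transcripts were most concentrated in fibroblasts. The 36 genes together took 5.99% and 6.18% of all fibroblast UMIs, against 1.51% and 1.65% in smooth muscle and pericytes, 0.770% and 0.907% in endothelium, 0.157% and 0.152% in monocytes and 0.00523% and 0.00945% in epithelium. Both libraries gave the same order of these classes, and no class's pair of values overlapped another's. T, NK and innate lymphoid cells (T cells for short), which are not known to make interstitial collagen, still held 0.00739% and 0.0161%, used here as a rough level of free RNA in the suspension, although Lamc1 (26.7 and 30.1 CPM) made up part of it. An unnamed stromal cluster led by Kcnn3 and Chodl, in no test, gave 4.32% and 5.58% of its UMIs to the 36 genes. Single fibroblasts varied widely, from 0.419% to 16.4% of their UMIs in library 1 and from 1.01% to 12.99% in library 2, with medians of 4.49% and 5.65%. The class of smooth muscle and pericytes was uneven as well, its cells running from 0.404% to 4.04% and from 0% to 5.78%. Within it, smooth muscle cells had medians of 0.902% and 0.455%. Smooth muscle markers summed to 35263 and 15034 CPM in this class, so its make-up differed between libraries. Fibroblasts were also sequenced more deeply than T cells, with medians of 10791 and 13441.5 UMIs per cell against 5249 and 4705.

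**Figure D1:**
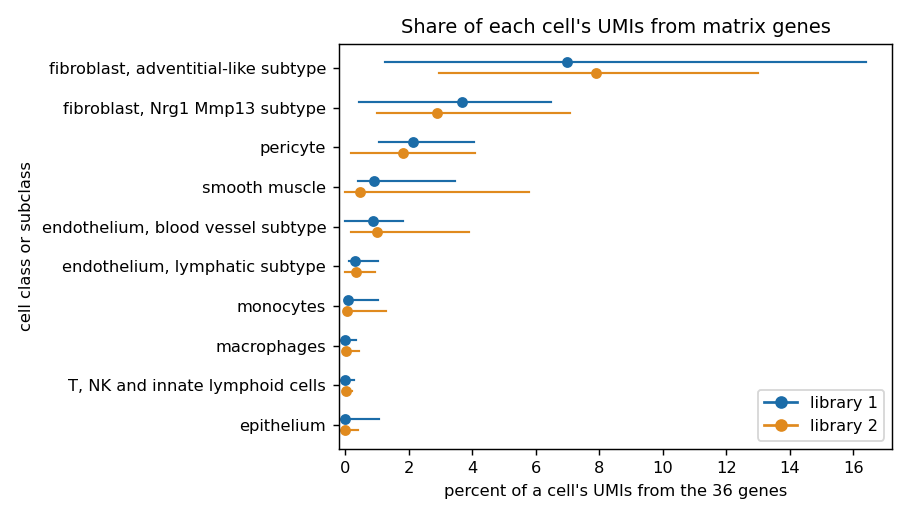
Percent of a cell's UMIs that came from the 36 matrix genes (x axis) in 10 classes and subtypes (y axis), by library. Points are medians over cells and lines run from the lowest to the highest cell. The adventitial-like fibroblasts have the highest medians (6.98% and 7.91%), the Nrg1 Mmp13 fibroblasts follow (3.66% and 2.89%), and the medians of T cells are 0% and 0.0112%.

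For 29 of the 36 genes 1 class stood above each of the other 11 classes in the fit (largest of its edgeR p-values, adjusted p under 0.05), and for 27 of these it was fibroblasts. Among all 14454 genes tested, 32.7% had such a class and 2.82% had it in fibroblasts. The other 2 were Lama4 and Col15a1, highest in endothelium, where 2.48% of all genes stood. Col18a1 and Postn had their highest mean in the fit, which rescales each sum, in fibroblasts, Col4a1, Col4a2 and Eln in smooth muscle and pericytes, and Fn1 and Vcan in monocytes, in each case without standing above the next class. The count was 18 with DESeq2. Shares of all genes are given for the main fit only, so counts under other settings have no such share beside them.

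**Figure D2:**
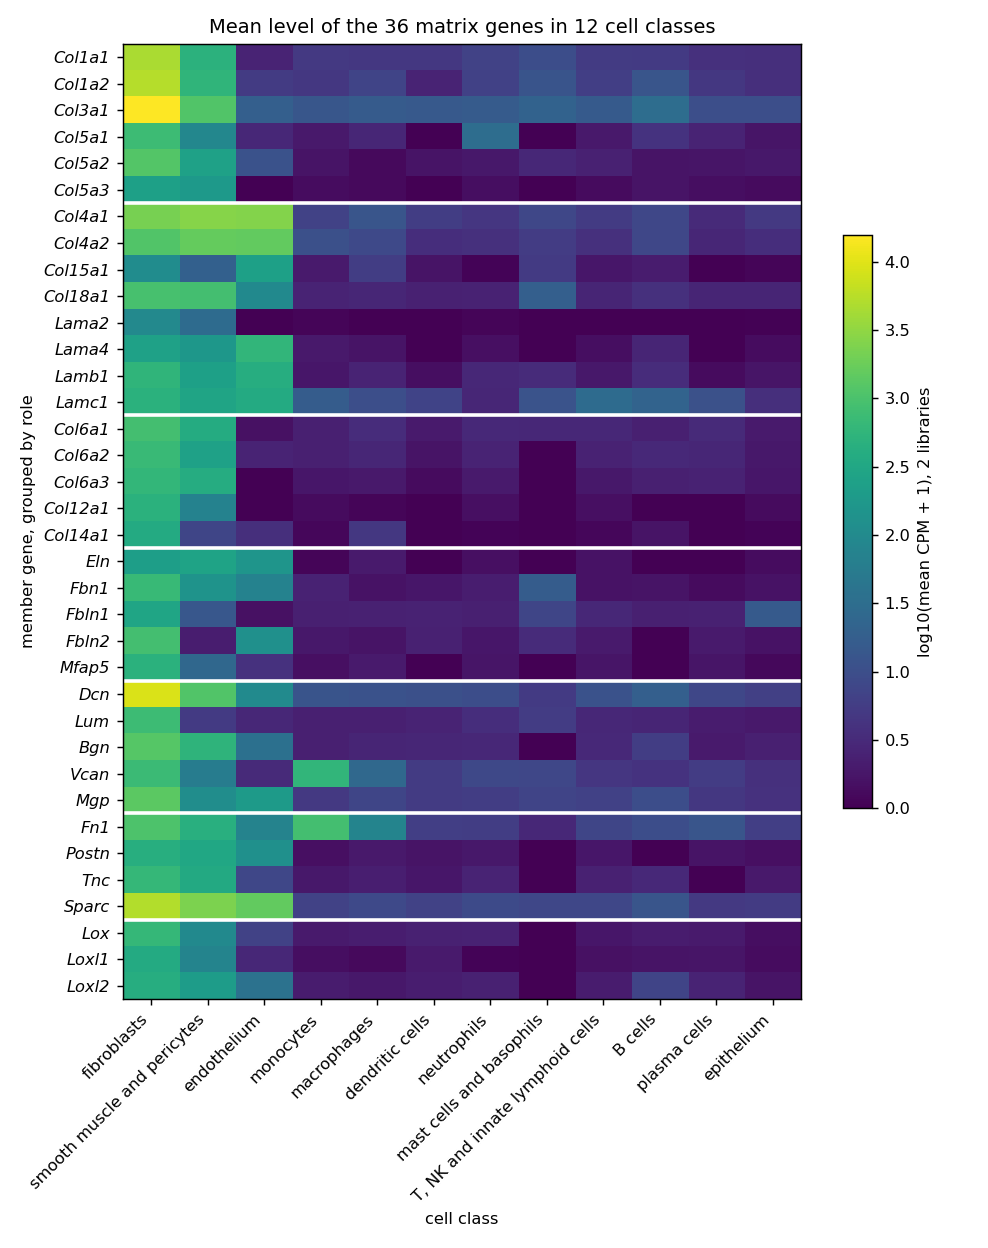
Level of each of the 36 matrix genes (rows, grouped by role between white lines) in each of 12 classes (columns), as log10 of the mean CPM of 2 libraries plus 1, with yellow highest and dark purple 0. The fibroblast column is bright in nearly every row, the type IV collagen and most laminin rows stay bright in smooth muscle with pericytes and in endothelium, and in the monocyte column Fn1 and Vcan stand out.

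Compared with endothelium, fibroblasts had 32 of the 36 genes at a higher level and 2 at a lower level (of all genes tested, 13.6% were called higher and 10.1% lower). The median log2 fold change of the 36 was 6.83, or 6.65 with genes absent from 1 class set to their bound, against 0.092 over all genes. Compared with smooth muscle and pericytes, 31 were higher and none lower (background 8.23% and 6.09%), with a median of 2.19 against 0.14. That count was 21 with DESeq2 and 22 with cells of at least 500 genes. Endothelium had 4 genes higher and 24 lower than smooth muscle and pericytes (9.19% and 9.99%), with a median of -3.25, or -3.46 with bounds, against 0.027. Against monocytes 34 were higher in fibroblasts and none lower (29.4% and 23.5%), median 8.69 against 0.088, and against epithelium 36 were higher (28.6%, and 54.6% in either direction), median 9.58 against 0.035. Most epithelial levels of these genes lay near that of T cells, the rough level of free RNA.

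The 6 fibrillar collagens, which build the load-bearing fibrils, were higher in fibroblasts than in every other class. Col3a1, the chain of type III collagen, stood at 15985 and 15361 CPM in fibroblasts, 949 and 1319 in smooth muscle and pericytes and 10.8 and 24.2 in endothelium. Col1a2, the second chain of type I collagen, gave 4893 and 5853, 466 and 641 and 5.42 and 3.16 CPM in the same classes. Its partner chain Col1a1 gave 4017 and 5075, 487 and 518 and 0 and 3.16. For these 3 genes the fibroblast values lay far above both other classes in each library, and the endothelial values were at or near those of T cells (7.14 and 21.2, 2.52 and 7.62 and 2.11 and 6.59).

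The difference from endothelium was 10.93 ± 0.48 on the log2 scale for Col1a2 (edgeR adjusted p = 5.94e-16, n = 2 libraries), and 3 endothelial UMIs against 12638 gave a ratio for Col1a1 of 2102 (counting interval 719 to 10192). Against smooth muscle and pericytes it was 4.13 ± 0.37 for Col3a1 (adjusted p = 2.56e-09) and 3.58 ± 0.28 for Col1a2 (adjusted p = 2.82e-10). The 2 type I chains had 1.17 Col1a2 UMIs per Col1a1 UMI in fibroblasts and 1.13 in smooth muscle and pericytes. Within the stromal clusters that ratio ran from 0.777 in pericytes to 1.54 in a fibroblast cluster led by Adamdec1. Ratios of UMIs are not ratios of chains, since capture at the 3' end differs between genes.

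Type V collagen is a minor component that regulates fibril width, and all 3 of its chains were higher in fibroblasts. Col5a1 stood at 738 and 746 CPM in fibroblasts and 91 and 83.6 in smooth muscle and pericytes (log2 fold change 3.36 ± 0.38, edgeR adjusted p = 3.77e-07). Col5a2 stood at 1210.4 and 1157 and 207 and 299.6 CPM (log2 fold change 2.54 ± 0.27, edgeR adjusted p = 4.79e-08). Col5a3 had the smallest excess, with 275 and 216 against 182 and 174 CPM (log2 fold change 0.71 ± 0.22, edgeR adjusted p = 0.0326), and lost its call with DESeq2, total-count scaling, cells of at least 500 genes and no doublets removed. Endothelium held little of the 3 chains, the most being 8.12 and 12.6 CPM of Col5a2, and Col5a3 had no UMI there, so fibroblasts were at least 102-fold higher (floor of 3 UMIs over both libraries).

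Promoter stretches of 2 fibrillar chains are shown because these genes were among the 4 with the largest differences from epithelium. They are the 250 bases before the start site in RefSeq (GRCm38.p6), 5′ to 3′ on the coding strand. Col1a2 lies at chr6:4505368-4505617 (+) and Col3a1 at chr1:45311288-45311537 (+), and capitals mark matches on either strand to the letters TATAAA (the TATA box), to CCAAT (the CCAAT box) or to GGGCGG (the GC box).
Col1a2: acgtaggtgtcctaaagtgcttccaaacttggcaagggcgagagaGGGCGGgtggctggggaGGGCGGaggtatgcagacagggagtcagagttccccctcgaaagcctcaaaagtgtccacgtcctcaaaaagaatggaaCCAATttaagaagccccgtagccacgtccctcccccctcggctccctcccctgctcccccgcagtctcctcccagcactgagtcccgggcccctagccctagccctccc
Col3a1: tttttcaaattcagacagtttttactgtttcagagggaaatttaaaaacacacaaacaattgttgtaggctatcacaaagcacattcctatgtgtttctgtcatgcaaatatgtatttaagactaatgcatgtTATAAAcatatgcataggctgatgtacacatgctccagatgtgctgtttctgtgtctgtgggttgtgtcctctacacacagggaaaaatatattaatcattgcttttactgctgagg
The stretch of Col1a2 held CCAAT once, GGGCGG 2 times and no TATAAA, while that of Col3a1 held TATAAA once and neither of the others. RefSeq windows (250 bases before to 50 after a start) were found for 21 of the 36 genes, 26 windows in all. TATAAA occurred in 4 of the 26 and in 13.6% of 32851 windows of all genes, CCAAT in 8 and in 37.4%, and GGGCGG in 17 and in 35.7%. Some of the windows overlap, those of Tnc holding the same TATAAA and the same GGGCGG, so the counts are not of independent stretches. These are letter matches, not binding sites.

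Type IV collagen, the network of the basement membrane, was present in all 3 stromal classes at levels of the same order. Col4a1, the main chain of type IV collagen, stood at 2424 and 2823 CPM in endothelium, 2748 and 2604 in smooth muscle and pericytes and 2020.0 and 2273 in fibroblasts. Col4a2, its partner chain, stood at 1313 and 1806, 1708 and 1519 and 1005 and 1270.0 CPM. Endothelium and smooth muscle with pericytes overlapped, and fibroblasts were the lowest of the 3 classes for both chains in each library. No pair of these classes passed the test: fibroblasts against endothelium gave -0.073 ± 0.29 for Col4a1 (edgeR adjusted p = 0.919) and -0.24 ± 0.25 for Col4a2 (adjusted p = 0.577). Endothelium against smooth muscle and pericytes gave -0.012 ± 0.29 and -0.049 ± 0.26 (adjusted p = 1 and 0.968), and fibroblasts against smooth muscle and pericytes gave -0.084 ± 0.29 and -0.28 ± 0.25 (adjusted p = 0.927 and 0.559). A difference missing the threshold with 2 libraries does not show that the levels are alike.

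The 2 type IV genes are neighbours on chromosome 8 and are read in opposite directions. In RefSeq (GRCm38.p6) the start of Col4a2 (+) is at 11312805 and that of Col4a1 (-) at 11312826, 21 bases apart, so the same short stretch (chr8:11312801-11312830) holds both starts. It is shown on each gene's own strand, with capitals from one start site to the other. Whether this stretch bears on the levels of the 2 genes was not tested.
Col4a2: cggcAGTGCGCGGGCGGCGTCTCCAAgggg
Col4a1: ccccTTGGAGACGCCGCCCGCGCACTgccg
There were 1.84 Col4a1 UMIs per Col4a2 UMI in fibroblasts, 1.63 in endothelium and 1.67 in smooth muscle and pericytes. Across 11 stromal clusters the ratio ran from 1.47 to 2.25, while their Col4a1 level ran over a wider range, for example 783 and 813 CPM in lymphatic endothelium and 4611 and 4432 in pericytes. Monocytes had more Col4a2 than Col4a1 (87 Col4a1 and 159 Col4a2 UMIs, a ratio of 0.547), at levels of 4.92 and 6.58 and 5.79 and 13.1 CPM.

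**Figure D3:**
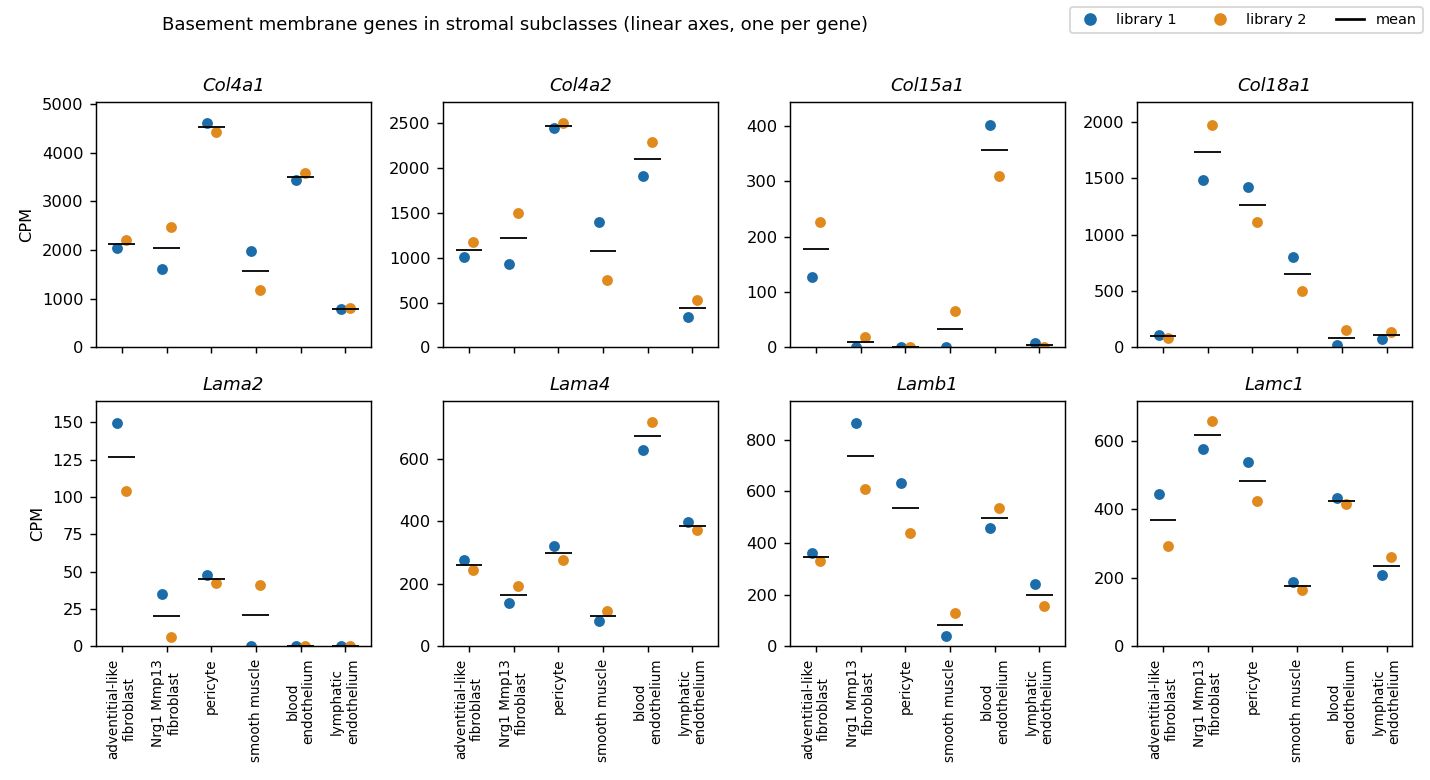
CPM of 8 basement membrane genes (linear axes, each panel with its own scale) in 6 stromal subtypes, with 1 point per library and a line at the mean. Both type IV collagen genes are highest in pericytes, Lama4 and Col15a1 in blood vessel endothelium, and Lama2 in adventitial-like fibroblasts, with no UMI of it in either endothelial subtype.

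Laminins, the cross-shaped proteins that seed basement membranes, differed by chain. Lama4, the alpha chain of vessel laminins, stood at 542 and 622 CPM in endothelium, 271 and 238 in fibroblasts and 151 and 183 in smooth muscle and pericytes. The endothelial values were the highest in both libraries, with a difference of fibroblasts from endothelium of -0.99 ± 0.21 (edgeR adjusted p = 0.000686) and of endothelium from smooth muscle and pericytes of 1.85 ± 0.24 (adjusted p = 1.78e-06). Lama2, the alpha chain of muscle and mesenchymal laminins, had 218 UMIs in fibroblasts (115 and 69.8 CPM), 22 in smooth muscle and pericytes (14 and 41.8) and 0 in endothelium. Fibroblasts were thus at least 36.3-fold higher than endothelium and smooth muscle and pericytes at least 13.5-fold (edgeR adjusted p = 6.78e-07 and 0.000714); DESeq2 called neither, nor Lama2 in fibroblasts against monocytes or epithelium.

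Lamb1 and Lamc1, the beta and gamma chains shared by these laminins, were highest in fibroblasts, next in endothelium and lowest in smooth muscle and pericytes. Lamb1 gave 657 and 469, 376 and 432 and 214 and 265 CPM, and Lamc1 532 and 438, 347 and 372 and 291 and 279. These values did not overlap between the 3 classes, and Lamc1 did not pass the test between endothelium and smooth muscle with pericytes (log2 fold change 0.39 ± 0.23, edgeR adjusted p = 0.279). Fibroblasts were above endothelium for Lamb1 (log2 fold change 0.68 ± 0.22, edgeR adjusted p = 0.0222) and Lamc1 (0.64 ± 0.21, adjusted p = 0.0239), and DESeq2, total-count scaling, cells of at least 500 genes and a mitochondrial limit of 40% each ended both calls, and leaving out the library block ended that of Lamb1. Lamb1 in endothelium was above smooth muscle and pericytes (0.81 ± 0.25, adjusted p = 0.0192), a call lost with DESeq2, with cells of at least 500 genes and with no doublets removed.

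The multiplexins Col15a1 and Col18a1, collagens that sit at basement membranes, went in opposite directions between fibroblasts and endothelium. Col15a1 stood at 252 and 224 CPM in endothelium, 75.8 and 143 in fibroblasts and 0 and 37.2 in smooth muscle and pericytes, where library 1 had no UMI. Endothelium exceeded fibroblasts in both libraries (fibroblasts against endothelium: -0.88 ± 0.28, edgeR adjusted p = 0.0196), a call lost with DESeq2 and without the library block, and the difference was -1.55 and -0.40 with 1 library at a time. Col18a1, whose C-terminal fragment is endostatin, was low in endothelium at 43.3 and 149.5 CPM and high in fibroblasts (1059 and 859) and in smooth muscle and pericytes (984 and 769). It differed between fibroblasts and endothelium (log2 fold change 3.37 ± 0.34, edgeR adjusted p = 5.9e-09), and its values overlapped between fibroblasts and smooth muscle with pericytes (log2 fold change 0.37 ± 0.29, edgeR adjusted p = 0.48).

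Type VI collagen forms beaded filaments that link cells to fibrils, and its 3 chains shared a pattern. Col6a1 stood at 1022 and 744 CPM in fibroblasts and 382 and 367 in smooth muscle and pericytes, Col6a2 at 729.7 and 641 and 203 and 295, and Col6a3 at 707 and 482 and 301 and 490.1. Endothelium held 1, 3 and 0 UMIs of these chains, so fibroblasts were at least 239-fold and smooth muscle and pericytes at least 182-fold above it for Col6a3. Against smooth muscle and pericytes, fibroblasts were higher by 1.50 ± 0.26 for Col6a1 (edgeR adjusted p = 9.16e-05), 1.75 ± 0.23 for Col6a2 (adjusted p = 1.91e-06) and 0.86 ± 0.25 for Col6a3 (adjusted p = 0.0217). DESeq2 and cells of at least 500 genes ended the calls of Col6a1 and Col6a3, and total-count scaling, no library block and the 40% mitochondrial limit also that of Col6a3. For Col6a3 the values overlapped, since fibroblasts of library 2 lay below smooth muscle and pericytes of the same library.

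Col12a1 and Col14a1 are fibril-associated collagens that sit on the surface of type I fibrils. Col12a1 stood at 642 and 307 CPM in fibroblasts and 98 and 46.5 in smooth muscle and pericytes (log2 fold change 2.95 ± 0.28, edgeR adjusted p = 6.96e-08). Col14a1 stood at 483 and 252 and 10.5 and 2.32 CPM (log2 fold change 6.18 ± 0.42, edgeR adjusted p = 6.69e-11; 5.63 and 7.14 with 1 library at a time). Col12a1 had no UMI in endothelium, which put fibroblasts at least 176-fold and smooth muscle and pericytes at least 29.5-fold higher. In both libraries each of these collagens was highest in fibroblasts.

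Elastic fibre genes were split. Eln, the elastin core, stood at 315 and 225 CPM in smooth muscle and pericytes, 189.5 and 252 in fibroblasts and 119 and 187 in endothelium. Its values overlapped between fibroblasts and smooth muscle with pericytes (log2 fold change -0.017 ± 0.25, edgeR adjusted p = 1), and the difference between fibroblasts and endothelium (log2 fold change 0.72 ± 0.25, edgeR adjusted p = 0.0411) was lost with DESeq2, total-count scaling, cells of at least 500 genes and no library block. Fbn1, the fibrillin of the microfibril sheath, stood at 673 and 668 CPM in fibroblasts, 147 and 139 in smooth muscle and pericytes and 81.2 and 60 in endothelium (log2 fold change 2.51 ± 0.25, edgeR adjusted p = 1.72e-08 for fibroblasts against smooth muscle and pericytes). Fibroblasts were the highest of these classes in each library.

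Fbln2, a fibulin that bridges elastin and basement membrane, stood at 635 and 1118 CPM in fibroblasts and 125 and 133 in endothelium, and had 1 UMI in smooth muscle and pericytes. The ratio to that class was 704 (counting interval 126 to 27818) for fibroblasts and 93.4 (counting interval 16.5 to 3710.0) for endothelium (edgeR adjusted p = 7.78e-13 and 5.87e-08). Mfap5, a microfibril glycoprotein, stood at 369.6 and 593 CPM in fibroblasts and 21 and 27.9 in smooth muscle and pericytes (log2 fold change 4.65 ± 0.28, edgeR adjusted p = 6.56e-12). Fbln1, which binds fibronectin and elastin, stood at 333 and 252 CPM in fibroblasts and at 0 and 25.5 in smooth muscle and pericytes, with no UMI there in library 1 (log2 fold change 4.63 ± 0.42, edgeR adjusted p = 3.11e-09). Each of these 3 genes was higher in fibroblasts than in smooth muscle and pericytes in both libraries. Of all Fbln1 UMIs fibroblasts held 26.1% and 23.0%, against 23.0% and 41.1% in cells without a class and 48.5% and 30.7% in epithelium.

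Of the proteoglycans, Dcn, encoding the fibril coat decorin, stood at 9441 and 8589.8 CPM in fibroblasts, 630.1 and 1626 in smooth muscle and pericytes and 159.8 and 45.3 in endothelium (log2 fold change 3.42 ± 0.39, edgeR adjusted p = 2.44e-07 for fibroblasts against smooth muscle and pericytes). Lum, encoding the related lumican, stood at 699 and 804 CPM in fibroblasts and had 3 UMIs in smooth muscle and pericytes, a ratio of 185 (counting interval 63.2 to 897) (adjusted p = 6.91e-12). Bgn, encoding biglycan, was less restricted, with 1067 and 1418 CPM in fibroblasts and 549.6 and 520.2 in smooth muscle and pericytes (log2 fold change 1.44 ± 0.24, edgeR adjusted p = 6.63e-05), a call that DESeq2 did not make. Fibroblasts exceeded both other stromal classes in each library for these 3 genes. Mgp, whose product inhibits calcification, stood at 1339 and 1443 CPM in fibroblasts, 105 and 118 in smooth muscle and pericytes and 19 and 359 in endothelium, where the libraries lay far apart (log2 fold change 3.46 ± 0.43, edgeR adjusted p = 3.03e-07). Cells without a class held 35.2% and 46.3% of all Mgp UMIs, against 57.7% and 31.0% in fibroblasts.

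Among the glycoproteins, Sparc, a collagen-binding matricellular protein, was abundant in all 3 stromal classes: 4453 and 5845 CPM in fibroblasts, 2335 and 2357 in smooth muscle and pericytes and 1554 and 1544 in endothelium. Fibroblasts were highest in each library (log2 fold change 1.91 ± 0.34, edgeR adjusted p = 6.48e-05 against endothelium; log2 fold change 1.33 ± 0.33, edgeR adjusted p = 0.00536 against smooth muscle and pericytes), and DESeq2 ended both calls, that against smooth muscle and pericytes being lost with cells of at least 500 genes and without the library block as well. Postn, encoding periostin, stood at 389.9 and 476, 214 and 416 and 176 and 72.6 CPM in the same order of classes. Its values overlapped between fibroblasts and smooth muscle with pericytes (log2 fold change 0.74 ± 0.30, edgeR adjusted p = 0.104). Tnc, encoding the injury-related tenascin C, stood at 778 and 481 CPM in fibroblasts, 462 and 242 in smooth muscle and pericytes and 8.12 and 5.26 in endothelium (log2 fold change 1.10 ± 0.24, edgeR adjusted p = 0.00192 against smooth muscle and pericytes, lost with DESeq2).

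The lysyl oxidases, which oxidise lysines to crosslink collagen and elastin, were higher in fibroblasts than in both other stromal classes. Lox stood at 339.8 and 926 CPM in fibroblasts and 126 and 65 in smooth muscle and pericytes (log2 fold change 2.98 ± 0.37, edgeR adjusted p = 1.13e-06). Loxl1 stood at 328 and 394 and 84 and 69.7 CPM (log2 fold change 2.54 ± 0.29, edgeR adjusted p = 2.37e-07). Loxl2 stood at 447 and 368 and 189 and 223 CPM (log2 fold change 1.22 ± 0.28, edgeR adjusted p = 0.00262). Endothelium was at or below 40.6 CPM for each of the 3, and the fibroblast libraries were further apart for Lox than for the other two. DESeq2, cells of at least 500 genes and no doublets removed each ended the call of Loxl2.

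Fibroblasts themselves divided by matrix. One subtype, marked by the growth factor Nrg1 and the collagenase Mmp13 (21 and 53 cells), gave 3.56% and 3.55% of its UMIs to the 36 genes, and an adventitial-like subtype marked by Pi16 (28 and 69 cells) gave 8.03% and 7.93%. The fibrillar collagens made up 0.656% and 0.551% and 4.34% and 4.31%. The Nrg1 Mmp13 subtype had 5 of the 36 genes higher and 19 lower (of the 7280 genes in this fit, 11.1% and 12.3%), with a median log2 fold change of -1.36 against -0.0066. All 5 elastic fibre genes, 4 of 6 fibrillar collagens and 4 of 5 in the group of proteoglycans and Mgp were lower.

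The genes lower in the Nrg1 Mmp13 subtype were led by 4 that it almost lacked. Col14a1 had no UMI in it and 949 and 426 CPM in the adventitial-like subtype, at least 166-fold lower (edgeR adjusted p = 3.1e-07). Mfap5 had 1 UMI against 1402, a ratio of 835 (counting interval 149.7 to 33014) in favour of the adventitial-like subtype. Mgp stood at 4.33 and 7.54 against 2444 and 2439 CPM (log2 fold change -8.84 ± 0.96, edgeR adjusted p = 1.08e-05) and Lum at 0 and 6.04 against 1362 and 1355 (log2 fold change -8.30 ± 0.47, edgeR adjusted p = 6.05e-08; -11.53 and -7.87 with 1 library at a time), and for each of the 4 the subtypes were separated by far in both libraries. Col1a1 and Col1a2, at 364 and 293 and 407 and 495 CPM against 6815 and 8086 and 7913 and 9145, were lower as well (log2 fold change -4.61 ± 0.31 and -4.34 ± 0.30; edgeR adjusted p = 1.44e-07 and 1.64e-07). Col3a1 was lower by a smaller step (3911 and 3306 against 26149 and 23344 CPM; log2 fold change -2.87 ± 0.28, edgeR adjusted p = 3.83e-06), and DESeq2 ended the calls of Col15a1, Fbln1 and Fn1.

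The genes higher in the Nrg1 Mmp13 subtype were Col18a1, Col12a1, Tnc, Col5a3 and Lamb1. Col18a1 stood at 1481 and 1974 CPM against 112 and 83.6 (log2 fold change 4.07 ± 0.48, edgeR adjusted p = 2.15e-05). Col12a1 stood at 1776 and 647 against 37.3 and 67.6 CPM (log2 fold change 4.05 ± 0.44, edgeR adjusted p = 2.65e-05; 3.15 and 5.47 with 1 library at a time). Tnc stood at 1901 and 1123 against 144 and 122 CPM (log2 fold change 3.33 ± 0.30, edgeR adjusted p = 1.76e-06). In each of these 3 both libraries of the Nrg1 Mmp13 subtype exceeded both of the adventitial-like subtype. Col5a3 stood at 593 and 427 against 131 and 102 CPM (log2 fold change 2.02 ± 0.26, edgeR adjusted p = 8.9e-05), and Lamb1 at 866 and 609.6 against 359.8 and 331 (log2 fold change 0.98 ± 0.26, edgeR adjusted p = 0.0131), a call lost with cells of at least 500 genes. Col4a2 and Postn had the smallest differences (log2 fold change 0.049 ± 0.27, edgeR adjusted p = 0.938; log2 fold change -0.11 ± 0.39, edgeR adjusted p = 0.893), and Dcn was among the genes that did not pass (14348 and 12641 against 9254 and 6922 CPM; log2 fold change 0.65 ± 0.39, edgeR adjusted p = 0.268).

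**Figure D4:**
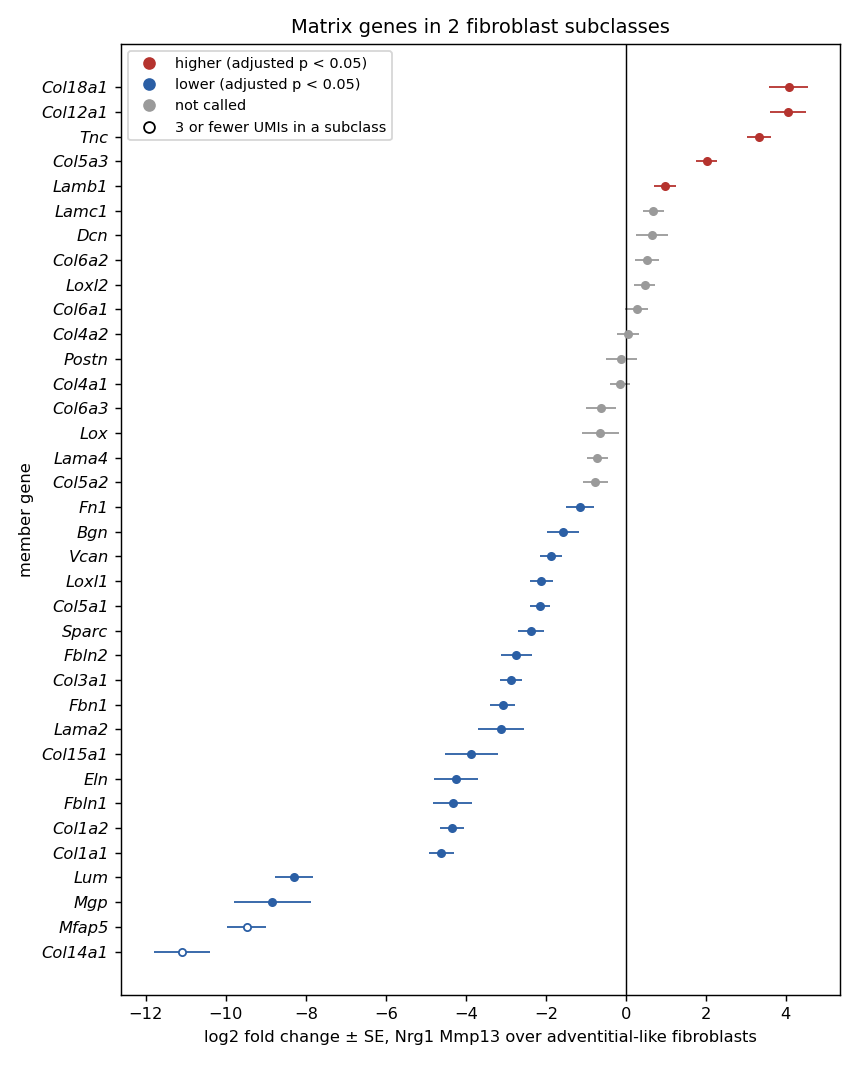
Fitted log2 fold change with the SE implied by its test for each of the 36 matrix genes, Nrg1 Mmp13 over adventitial-like fibroblasts, with genes called higher in red, called lower in blue and not called in grey. Col18a1, Col12a1 and Tnc lie farthest to the right, and Mgp and Lum far to the left. Open points are Col14a1 and Mfap5, with 0 and 1 UMI in the Nrg1 Mmp13 subtype, whose fitted values are not bounds.

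Another fibroblast cluster, led by Adamdec1 and with 14 cells in each library, was in no test of subtypes. Nrg1 was high there too, at 2322 CPM pooled over libraries against 3812 in the Nrg1 Mmp13 subtype. Mmp13 separated these clusters, at 23.9 against 8353 CPM. Matrix genes took 4.44% and 4.32% of its UMIs. It had the highest levels of Col6a1 (2701 and 2168 CPM) and Col6a2 (2120.4 and 1617) of the 3 fibroblast clusters, and of Postn (1094 and 1829) and Col18a1 (3003 and 1989.9 CPM). Dcn was lower there than in both other clusters in each library (1419 and 1744 CPM), and Lum stood at 37.7 and 33.9 CPM, far under the adventitial-like subtype. These values are a description of 1 cluster with no test.

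Within endothelium, blood vessel cells (36 and 77) and lymphatic cells (27 and 51) differed in 12 of the 36 genes, 6 higher in blood vessels and 6 lower (of 7280 genes, 6.84% and 7.77%). The median of the fitted values of all 36 was -0.11, against 0.007 over all genes. Over only the 23 genes that had a fold, with bounds, it was -0.42. The blood vessel side held basement membrane genes. Col4a2 stood at 1909 and 2289 against 342 and 529 CPM (log2 fold change 2.25 ± 0.29, edgeR adjusted p = 8.45e-05), Col4a1 at 3430.1 and 3583 against 783 and 813 (log2 fold change 2.12 ± 0.27, edgeR adjusted p = 7.33e-05) and Lamb1 at 459 and 535 against 242 and 157 (log2 fold change 1.35 ± 0.29, edgeR adjusted p = 0.00532). Sparc stood at 2381 and 2098 against 207 and 80.5 CPM (log2 fold change 4.03 ± 0.37, edgeR adjusted p = 5.32e-06; 3.52 and 4.66 with 1 library at a time). Col15a1 had 305 UMIs against 1, a ratio of 133 (counting interval 23.7 to 5281). For these 5 genes the subtypes did not overlap. Mgp was also called (17.5 and 493 against 21.4 and 3.84 CPM; log2 fold change 4.54 ± 1.10, edgeR adjusted p = 0.0108), but its values overlapped, DESeq2 did not call it, and with library 1 alone the sign turned (-0.28).

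The lymphatic side held Postn, Dcn, Loxl2, Fbn1, Fn1 and Fbln2. Postn had no UMI in blood vessel cells and 463 and 265 CPM in lymphatic cells, at least 102-fold higher there (edgeR adjusted p = 1.39e-05). Dcn stood at 8.74 and 7.26 in blood vessels against 406 and 146 CPM (log2 fold change -5.04 ± 0.66, edgeR adjusted p = 9.44e-05; -5.46 and -4.32 with 1 library at a time), and Loxl2 at 0 and 5.80 against 107 and 107 (log2 fold change -4.56 ± 0.56, edgeR adjusted p = 5e-05; -7.65 and -4.20). Fbn1 stood at 8.74 and 14.5 against 199 and 180.3 CPM (log2 fold change -3.89 ± 0.45, edgeR adjusted p = 3.22e-05). The lymphatic values were above the blood vessel values in both libraries for all of these. The summed CPM of the fibroblast marker list was also higher in lymphatic cells (128 and 119) than in blood vessel cells (26.2 and 34.8), and its part in these differences was not tested. Col6a3, Col5a3, Col12a1 and Lama2 had no UMI in either subtype and therefore no fold.

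Smooth muscle (17 and 34 cells) and pericytes (13 and 24), set apart after the classes had been seen, differed in 15 of the 36 genes, with 6 higher in smooth muscle and 9 lower (of 6389 genes, 5.99% and 6.25%), a median of 0.49, or 0.33 with bounds, against 0.055. Pericytes had the highest type IV collagen of the stromal subtypes, with Col4a1 at 4611 and 4432 CPM against 1973 and 1181 in smooth muscle (log2 fold change -1.27 ± 0.33, edgeR adjusted p = 0.0238). Dcn stood at 2085 and 3615 in pericytes against 24.8 and 78.5 CPM (log2 fold change -5.56 ± 0.56, edgeR adjusted p = 5.58e-05), Col5a3 at 584 and 345 against 14.9 and 41.3 (log2 fold change -3.70 ± 0.44, edgeR adjusted p = 0.000291; -4.90 and -2.96 with 1 library at a time) and Lamb1 at 632 and 441 against 39.7 and 128 (log2 fold change -2.41 ± 0.42, edgeR adjusted p = 0.0024; -3.63 and -1.69). Each of these was higher in pericytes in both libraries. The fibroblast markers summed to 6578 and 4443 CPM in pericytes and 773 and 1338 in smooth muscle, and the pericyte cluster also held 305 CPM of Nrg1 and 1094 of Mmp13, pooled over libraries. Their part in these differences was not tested.

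Smooth muscle was higher for Fn1, at 570.0 and 826 CPM against 47.7 and 31.8 in pericytes (log2 fold change 4.42 ± 0.54, edgeR adjusted p = 0.000189), and for Eln, at 446 and 355 against 0 and 58.4 (log2 fold change 3.71 ± 0.71, edgeR adjusted p = 0.00438; 2.69 and 9.66 with 1 library at a time), where pericytes of library 1 had no UMI. Mgp (149 and 206 CPM) and Mfap5 (24.8 and 49.6 CPM) each had 1 UMI in pericytes, with ratios of 49.1 (counting interval 8.56 to 1962) and 10.4 (counting interval 1.63 to 436). Col1a2 and Lox were higher in smooth muscle as well (log2 fold change 1.49 ± 0.33, edgeR adjusted p = 0.00953; log2 fold change 3.16 ± 0.90, edgeR adjusted p = 0.0353). The call of Mfap5 was lost with DESeq2 and that of Mgp with a mitochondrial limit of 40%, that of Lox without the library block, and no doublets removed ended that of Lamc1. With cells of at least 500 genes 8 were higher and 3 lower in smooth muscle, and 6 of the 9 lower calls ended, those of Col4a1, Lama4, Lamc1, Loxl2, Sparc and Fbn1 (-2.03 ± 0.44; -2.78 and -1.37 with 1 library at a time). Loxl2 was lost with DESeq2, the 40% mitochondrial limit and no doublets removed as well.

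Fn1 and Vcan were the 2 matrix genes not called between monocytes and fibroblasts. Their levels were of the same order, but a missed threshold with 2 libraries does not show that they are alike. Fn1 encodes fibronectin, the adhesive glycoprotein of provisional matrix, and stood at 909.7 and 827 CPM in monocytes, 1237 and 858 in fibroblasts, 82.6 and 73.8 in macrophages and 3.72 and 9.18 in T cells. Vcan encodes versican, a large hyaluronan-binding proteoglycan, and stood at 607 and 564, 724 and 718, 32.5 and 17.5 and 3.02 and 4.37 CPM in the same classes. Smooth muscle and pericytes had 417 and 478 CPM of Fn1 and 56 and 58.1 of Vcan, and endothelium 54.2 and 94.8 and 0 and 4.21. Monocytes and fibroblasts overlapped for Fn1, and for Vcan fibroblasts lay slightly above monocytes in both libraries. Neither passed the test between them (log2 fold change -0.16 ± 0.28, edgeR adjusted p = 0.66; log2 fold change -0.12 ± 0.26, edgeR adjusted p = 0.731). Scaling by total counts in place of edgeR's composition adjustment (TMM) gave 0.29 for Fn1 and 0.30 for Vcan, and moved the median of all genes by 0.38 on the log2 scale, so that both genes lay below that median under either scaling.

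Monocytes, which outnumbered fibroblasts, held 50.4% of all Fn1 UMIs in named and unnamed cells of library 1, against 14.7% in fibroblasts, and 52.3% of Vcan UMIs, against 13.4%. Cells without a class held more than fibroblasts, 26.4% and 25.1% of Fn1 UMIs and 28.4% and 27.3% of Vcan UMIs in libraries 1 and 2. In library 2 monocytes held 57.6% of Fn1 UMIs, against 10.7%, and 56.5% of Vcan UMIs, against 12.9%. A UMI of Fn1 was seen in 72.5% (67.7 to 76.7) and 59.5% (56.9 to 62.1) of monocytes (95% Wilson interval), in 87.3% and 81.6% of fibroblasts, in 22.2% and 22.8% of macrophages and in 2.04% and 4.76% of T cells. Thinned to 2000 UMIs per cell, which left out 20 and 89 monocytes and 98 and 214 T cells, the shares for Fn1 were 54.8% and 46.8% in monocytes and 0.891% and 1.72% in T cells. For Vcan they were 62% and 55.6% of monocytes and 1.14% and 2.32% of T cells, or 47.7% and 41.5% and 0.382% and 0.945% after thinning. The median depth was 9430 and 7848.5 UMIs in monocytes and 5249 and 4705 in T cells. Intervals cover counting error only.

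Compared with macrophages, monocytes had 3 of the 36 genes higher and 2 lower, 5 in all (10.7% and 8.72% of all genes), with a median of 0.32 against 0.018, and the count was 2 with cells of at least 500 genes. The log2 fold change was 4.96 ± 0.32 for Vcan and 3.85 ± 0.32 for Fn1 (edgeR adjusted p = 3.35e-11 and 1.21e-09). Lamc1 was higher as well (15.4 and 16.4 against 11 and 7.06 CPM; log2 fold change 1.23 ± 0.30, edgeR adjusted p = 0.00352), below its level in T cells (26.7 and 30.1 CPM). Col14a1 had 2 UMIs in monocytes against 22 in macrophages, a ratio of 26.2 (counting interval 6.44 to 229.7) in favour of macrophages, and Col15a1 stood at 0.869 and 1.13 against 3.34 and 6.28 CPM (log2 fold change -1.99 ± 0.58, edgeR adjusted p = 0.0157). Lamc1, Col14a1 and Col15a1 lost their calls with cells of at least 500 genes, and Col15a1 also with the 40% mitochondrial limit. Col6a2 and Col3a1 had the smallest differences (0.0093 and 0.024).

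**Figure D5:**
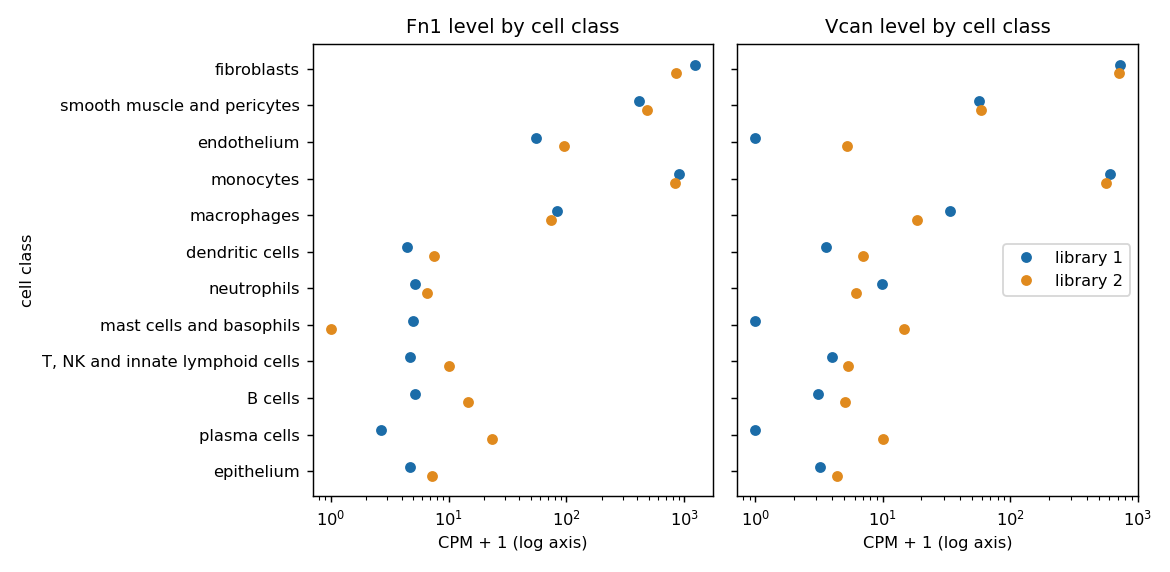
CPM plus 1 of Fn1 and Vcan (log axis) in each of 12 classes, 1 point per library. Monocytes and fibroblasts share the top of both panels, macrophages lie between them and the remaining immune classes, and T cells stand at 3.72 and 9.18 CPM for Fn1.

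Against T cells as the level of free RNA, monocytes were higher for 5 of the 36 genes (Fn1, Vcan, Col4a2, Fbn1 and Lama4) and lower for none (25.8% and 26.7% of all genes). Fbn1 and Lama4 were scarce: monocytes held 0.305% and 1.61% of all 655 and 1678 Fbn1 UMIs, and 0.39% and 0.992% of all 513 and 1310 Lama4 UMIs. Total-count scaling moved the median of all genes by -0.57 on the log2 scale. The calls of Col4a2, Fbn1 and Lama4 were not checked under the alternatives. Fn1 and Vcan differed by 7.67 ± 0.38 and 7.87 ± 0.36 (edgeR adjusted p = 7.93e-16 and 1.92e-16; 7.04 and 8.54 for Fn1 with 1 library at a time). Other matrix transcripts of monocytes lay near the level in T cells, for example Col3a1 at 5.50 and 19 CPM against 7.14 and 21.2 and Dcn at 6.08 and 16.3 against 5.94 and 15.2. These comparisons and those in the next paragraph were added after the levels had been seen.

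Fbln1, Lamc1 and Col5a1 were also counted outside the stroma. Fbln1 stood at 10.7 and 18.4 CPM in epithelium against 1.21 and 2.66 in T cells (log2 fold change 3.19 ± 0.31, edgeR adjusted p = 3.75e-10), and had the smallest excess of fibroblasts over epithelium (log2 fold change 4.20 ± 0.26, edgeR adjusted p = 3.28e-14). A UMI of Fbln1 was seen in 13.9% and 25.7% of epithelial cells and 0.719% and 1.38% of T cells, at median depths of 17187 and 22447.5 against 5249 and 4705 UMIs. Thinned to 2000 UMIs per cell, which left out 62 and 61 epithelial and 98 and 214 T cells, the shares were 1.05% and 2.87% and 0.254% and 0.558%. Epithelium held 1100 Fbln1 UMIs against 726 in fibroblasts. In the comparison of epithelium with T cells 1 member was higher and 3 lower (34% and 30.7% of all genes, 64.6% in either direction). Lamc1, in turn, was lower in epithelium (1.81 and 3.46 CPM) than in T cells (log2 fold change -3.11 ± 0.23, edgeR adjusted p = 9.91e-13), which carried it in 11.6% and 13.3% of cells, or 5.53% and 5.88% after thinning.

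Col5a1 in neutrophils stood at 40.2 and 20 CPM against 0.302 and 1.55 in T cells (log2 fold change 6.18 ± 0.47, edgeR adjusted p = 1.28e-11; 5.01 and 8.28 with 1 library at a time), with a UMI in 17.2% and 8.75% of neutrophils and 0.180% and 0.826% of T cells, or 5.19% and 2.20% and 0.0636% and 0.386% after thinning. Neutrophils had 16 members higher than T cells and 1 lower (29.5% and 30.5% of all genes), and apart from Col5a1, Vcan and Lamb1 the values of those 16 overlapped. How often values overlap among all genes is not given here. With total-count scaling 1 member was higher and 1 lower, the fold of Col5a1 was 4.83, and the median of all genes moved by -1.34 on the log2 scale (the TMM factors of the neutrophil sums were 0.468 and 0.485). The 1 member lower was Lamc1 (0.638 and 2.96 CPM; log2 fold change -2.44 ± 0.35, edgeR adjusted p = 9.54e-07; -4.0 and -2.0 with 1 library at a time). Col5a2, the partner chain of Col5a1 in fibrils, was at 0 and 1.67 CPM in neutrophils.

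Fibroblasts exceeded epithelium for each of the 36 genes, the most for Col14a1, Col1a2, Col3a1 and Mfap5. The 36 genes together took 0.00523% and 0.00945% of epithelial UMIs, against 0.00739% and 0.0161% in T cells, the rough level of free RNA. Only Fbln1 was called higher in epithelium than in T cells. The folds of the other genes are therefore set against levels near free RNA. Col14a1 had 8 UMIs in epithelium (log2 fold change 11.33 ± 0.34, edgeR adjusted p = 4e-19), and Mfap5 had 18 (log2 fold change 10.73 ± 0.27, edgeR adjusted p = 5.09e-20). Col1a2 and Col3a1 differed by 10.96 ± 0.38 and 10.84 ± 0.49 (edgeR adjusted p = 3.96e-19 and 5.41e-17; 10.15 and 11.32 for Col3a1 with 1 library at a time). Against monocytes the largest differences were those of Col14a1 (2 monocyte UMIs, ratio 2229 (counting interval 615 to 18436)), Col5a2 (10.25 ± 0.41), Col3a1 (10.16 ± 0.49) and Col1a2 (10.12 ± 0.39), with adjusted p of 2.23e-17, 6.92e-16 and 1.82e-17. With 1 library at a time these were 9.81 and 11.40, 9.36 and 10.96 and 9.69 and 10.91.

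Other genes of the pathway were read from lists. Pcolce, on the first list, and Cd36, on the list of receptors, were also markers used to cluster and name cells. Their part in the counts is therefore not independent of the class names. Of 25 tested genes for collagen folding, processing and crosslinking, 17 were higher in fibroblasts than in endothelium and 2 lower, with a median of 1.43 against 0.093 over all genes, of which 13.6% were called higher and 10.1% lower. Against smooth muscle and pericytes 14 were higher and 1 lower, where 8.23% and 6.09% of all genes were called. Adamts2, which trims the amino end of fibrillar procollagens, and Pcolce2, an enhancer of trimming at the other end, had 468 and 179 UMIs in fibroblasts and none in endothelium. Tgm2, a transglutaminase, and Plod1, a lysyl hydroxylase, were lower in fibroblasts (log2 fold change -1.62 ± 0.28, adjusted p = 6.73e-05; log2 fold change -0.87 ± 0.23, adjusted p = 0.0057). Between the fibroblast subtypes 14 of 21 of these genes were lower in the Nrg1 Mmp13 subtype and 1, P3h2, was higher (12.3% and 11.1% of all genes), and Pcolce2 had no UMI there.

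For the lists that follow, the same shares of all genes apply. Of 10 other collagen chains tested, 8 were higher in fibroblasts than in endothelium, led by Col6a4 and Col28a1 (146 and 46 UMIs against none), and 2 lower, Col13a1 (10.8 and 5.77 against 141 and 59 CPM) and Col23a1 (8.12 and 14.2 against 106 and 81.1 CPM). Against smooth muscle and pericytes 4 of the 10 were higher and none lower, and between the fibroblast subtypes 4 of 7 were higher in the Nrg1 Mmp13 subtype and 2 lower. Col13a1 and Col23a1 separated the endothelial subtypes: Col13a1 was higher in blood vessels (223 and 81.3 against 7.12 and 0 CPM) and Col23a1 in lymphatics (4.37 and 0 against 271 and 295 CPM). Of 15 other laminins and basement membrane genes 3 were higher in fibroblasts than in endothelium and 5 lower (3 and 4 against smooth muscle and pericytes), and Mmrn2 (0 UMIs against 384) and Tinagl1 (6.77 and 4.20 against 330.4 and 481 CPM) led the endothelial side. Lama5, the 1 gene called of 10 between the fibroblast subtypes, was higher in the Nrg1 Mmp13 than in the adventitial-like subtype (252 UMIs against 1), next to the higher Lamb1 and Col18a1 described above.

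Of 28 elastic fibre, small proteoglycan and matricellular genes 21 were higher in fibroblasts than in endothelium, led by Ogn and Efemp1 (817 and 563 UMIs against none), and 3 lower, among them Thbs1 (185 and 292 against 2375 and 2580.5 CPM) and Ccn1 (162 and 105 against 666 and 629 CPM). Against smooth muscle and pericytes 15 of the 28 were higher and 4 lower. In the Nrg1 Mmp13 subtype 3 of 25 were higher and 15 lower, with Ccn2 higher (log2 fold change 2.88 ± 0.53, adjusted p = 0.000882) and Has1, a hyaluronan synthase, at 0 UMIs against 171. Of 27 receptors for collagen, laminin and fibronectin 11 were higher in fibroblasts than in endothelium and 5 lower (median 0.84), including the collagen receptor Mrc2 (183 UMIs against none) and the laminin receptor chain Itga6 (8.12 and 8.92 against 390.0 and 375 CPM). Against smooth muscle and pericytes 5 of the 27 receptors were higher and 6 lower (median -0.22). Between the fibroblast subtypes 7 of 23 were higher in the Nrg1 Mmp13 subtype and 1 lower. Itgb3 was higher in the Nrg1 Mmp13 subtype (log2 fold change 5.73 ± 0.49, adjusted p = 1.16e-06) and Mrc2 lower (log2 fold change -2.23 ± 0.39, adjusted p = 0.00121). Of 15 TGF-beta signalling genes 5 were higher in fibroblasts than in endothelium and 6 lower, and 3 and 2 against smooth muscle and pericytes. Between the fibroblast subtypes 5 of 13 were higher in the Nrg1 Mmp13 subtype and 2 lower. Smad7 was higher in the Nrg1 Mmp13 subtype (log2 fold change 2.89 ± 0.34, adjusted p = 2.29e-05) and the co-receptor Tgfbr3 lower (log2 fold change -4.56 ± 0.43, adjusted p = 2.84e-06).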

How the data were processed

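RNA of single cells was counted in 2 libraries of 1 group. The authors deposited whole-number counts, UMIs per gene and barcode, made with Cell Ranger: version 7.0.0 per the file headers, but 8.0.0 per the submitters' processing notes. Barcodes numbered 6597 and 9611, with 76622643 and 94204110 UMIs. Barcodes under 200 genes (36 and 9) or with at least 20% mitochondrial UMIs (876 and 484) were removed, then the highest Scrublet scores (302 and 702). Cells were clustered with scanpy 1.11.5 under Python 3.11.15 (2000 variable genes without the 171 list genes, 30 components, 15 neighbours, Leiden resolution 1), stroma and phagocytes again alone, and named from marker lists with a scoring rule set after clusters were seen. At least 3 markers had to be detected (10 CPM). When stroma and phagocytes were clustered alone, the best score had to lead that of every other class by 0.5 on the log2 scale. No margin was set between subtypes of 1 class.

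Raw counts of each class were added up within a library (at least 10 cells in each library) and tested with edgeR 4.0.16 (R 4.3.3): quasi-likelihood test, TMM, filterByExpr, library as a block, Benjamini-Hochberg adjustment over all genes, called at adjusted p under 0.05. One fit held 12 classes (14454 genes, 11 residual degrees of freedom), a second 5 stromal subclasses (7280 genes, 4) and another 6 (6389 genes, 5), the last added after the data had been seen. All 36 members passed the filter in each. The SE of a fitted fold (the ± values) was the absolute log2 fold change divided by the square root of the test's F statistic. For genes with few UMIs it need not reflect the spread between libraries. A sum of 0 was set to a floor of 3 UMIs over both libraries for a bound, and 1 to 3 UMIs gave a ratio with a 95% counting interval. DESeq2 1.42.0, total-count scaling, no filter on low counts, no library block, 500 genes, 40% mitochondrial UMIs, no doublets removed, Leiden resolution 0.5 and each library left out were the alternatives. The members and lists were chosen with earlier results of these data known. Members named with statistics are the 4 called with the largest change in each direction and the 2 with the smallest, others being given to complete a role, and of each pathway list at most 2 genes per direction, or 1 between subtypes. The fits were tested on simulated counts. Sequences came from RefSeq (GRCm38.p6).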

Additional observations from a re-analysis of the deposited data

Results flagged for a closer look

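Cells that no comparison used held 2 matrix genes at high levels. In a stromal cluster led by Kcnn3, Chodl and Hmcn2 (12 and 25 cells), which scored highest for interstitial cells of Cajal and was left unnamed, Mgp reached 12250.7 CPM pooled over both libraries and Fbln1 2833.2 CPM. Per library these were 6809.6 and 14061 CPM of Mgp and 2388 and 2981 CPM of Fbln1, above fibroblasts in both libraries (1339 and 1443 and 333 and 252). In a cluster led by Slpi, Upk3b and Muc16, with mesothelial markers and 0 and 12 cells, Mgp reached 6051.62 CPM, all from library 2. These values were not tested.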

How the results depend on the processing

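With cells of at least 500 genes 2 members were called between monocytes and macrophages in place of 5, and with DESeq2 18 members in place of 29 stood highest in 1 class. Shares of all genes called are not given for these settings, so a fall in a count may not be particular to the members. Without the library block (no replicate block) the counts were 31 for fibroblasts against endothelium, 29 against smooth muscle and pericytes, 28 for the highest class, 14 for smooth muscle against pericytes and, for neutrophils against T cells, 13 higher in place of 16. The repeats' class sums share a library number, which the block uses, and the block changed the count in no other comparison that leaves T cells out. Values near 0 turned sign. With 1 replicate left out, fibroblasts against smooth muscle and pericytes ranged from -0.34 to 0.20 for Col4a1 and from -0.63 to 0.56 for Eln, and Eln gave 0.0040 without the block and 0.066 with the 40% limit. Endothelium against that class gave for Col4a1 0.015 without a filter, 0.010 without the block and -0.25 to 0.27 without 1 replicate, and for Col4a2 -0.45 to 0.40. Fibroblasts against monocytes gave for Fn1 0.29 with total counts and 0.081 with 500 genes, and for Vcan 0.30, 0.18, 0.054 with the 40% limit and 0.050 without replicate 1. Monocytes against macrophages gave for Col3a1 -0.31 with total counts and -0.017 with DESeq2, and for Col6a2 -0.32, -0.086, -0.083 with 500 genes, -0.0046 with no doublets removed, -0.23 with the 40% limit, -0.13 at Leiden 0.5 and -0.021 and -0.33 without replicate 1 or 2. Between fibroblast subtypes Col4a2 gave -0.24 with 500 genes and -0.20 to 0.25 without 1 replicate, and Postn -0.85 to 0.31. Mgp in blood against lymphatic vessels ranged from -0.28 to 6.89 without 1 replicate, and Loxl1 in smooth muscle against pericytes from -0.073 to 0.66. Apart from Mgp, no called member turned sign without 1 library in the comparisons that leave T cells out. In those with T cells 2 called members each were checked. Counts could not be refitted with 1 library, which leaves no residual degrees of freedom. Classes of 13 to 63 cells in library 1 limit the depth of rare members.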
